A study of Mus musculus with 9 samples.

Results

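The 34 genes described here encode the proteins that bring glucose into the cell, split it to pyruvate, make and export lactate, and run the pentose phosphate pathway. They were picked by name and function, with earlier results of these data known, and are 34 of 54838 genes counted in mouse ear. By role they are 3 genes of glucose uptake and phosphorylation, 13 glycolytic enzymes, 4 lactate enzymes and transporters, 4 bifunctional PFKFB enzymes, 4 pyruvate dehydrogenase kinases and 6 pentose phosphate enzymes. Of the 34, 31 had enough counts to be tested among 13807 tested genes. The other 3 were Eno2, the neuronal enolase, Pfkfb1, the liver and muscle PFKFB enzyme, and Pdk4, a pyruvate dehydrogenase kinase.

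Glycolysis converts glucose to pyruvate in the cytosol. Pyruvate either enters mitochondria, through the pyruvate dehydrogenase complex, or is reduced by lactate dehydrogenase to lactate, which leaves the cell through monocarboxylate transporters. The pentose phosphate pathway branches off at glucose 6-phosphate and supplies NADPH and ribose. Several steps have more than 1 isoenzyme, each with its own tissue preference, and in skin both dividing keratinocytes and recruited leukocytes are known to use glucose at a high rate. Many of these genes are textbook targets of the transcription factor HIF-1.

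The ears came from C57BL/6 mice aged 10 weeks in 3 groups of 3 libraries: wild-type mice given minicircle DNA for green fluorescent protein (GFP), wild-type mice given a minicircle for interleukin 23 (IL-23), and knockout (Mdl-1-/-) mice given that same IL-23 minicircle. They are called GFP ears, IL-23 wild-type ears and Mdl-1-/- ears below. All had 15 µg of DNA by hydrodynamic injection into the tail vein, a large fast injection that delivers DNA mainly to the liver. RNA was read by 3' tag sequencing, in which a transcript is counted near its 3' end whatever its length. The labels give the libraries of a group the numbers 1 to 3 and do not say whether each is its own animal; a p-value here therefore rests on library-to-library spread, which may be technical. There was no Mdl-1-/- group with GFP DNA, so a genotype difference present before IL-23 and a difference in the response to IL-23 cannot be told apart. MDL-1 is a myeloid receptor encoded by Clec5a, which had 2, 7 and 10 counts in GFP ears, 17, 21 and 11 in IL-23 wild-type ears and 10, 13 and 5 in Mdl-1-/- ears. The deleted part of the gene is not named in the labels, so a 3' tag does not check the genotype.

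Libraries held 3776188 to 5605713 counts. The mitochondrial share differed by group: 12.6% to 15.1% in GFP ears, 8.69% to 8.99% in IL-23 wild-type ears and 11.4% to 12.9% in Mdl-1-/- ears. A fit without mitochondrial genes is among the alternatives below. Errors after a log2 change are standard errors (SE). Levels are given below as CPM, counts scaled to a total of 1e+06 per library, after scaling by trimmed mean of M-values (TMM), in the order of libraries 1, 2 and 3, and a gene was called when its edgeR adjusted p over all tested genes was below 0.05. The scaling mattered for the whole table: of all genes called for IL-23 against GFP in wild type, 51.3% were higher with TMM, 38.9% with upper-quartile scaling and 22.7% with total-count scaling, which moved the median gene by -0.15 and -0.40 on the log2 scale. Between the genotypes under IL-23 the shares higher in Mdl-1-/- were 42.9%, 53.2% and 67.0%, with median shifts of 0.06 and 0.16. Between Mdl-1-/- and GFP ears they were 59.4%, 43.7% and 26.1%, with shifts of -0.10 and -0.25. Markers of other cells also moved. The 8 neutrophil markers summed to 312 to 449.5 CPM in the GFP group, 35016 to 74370.2 CPM in the IL-23 wild-type group and 6766 to 26019 CPM in the Mdl-1-/- group, and 6 of them without S100a8 and S100a9, which keratinocytes also make, to 71.2 to 112 CPM, 187 to 225 CPM and 115 to 141 CPM. Il1r2 held most of the second sum, with means of 80.4, 110 and 79.2 CPM in the same order of groups. Cxcr2 averaged 2.77, 36.9 and 30.4 CPM, Csf3r 1.09, 5.98 and 1.59 CPM, Retnlg 1.43, 14.7 and 3.12 CPM, and Mmp9 12.7, 32.6 and 15.4 CPM. Of 7 neutrophil markers tested, 6 were called higher with IL-23 in wild type (22.9% of all tested genes). Between the genotypes 2 were called lower in Mdl-1-/- ears and 0 higher (10.1% and 7.58% of all tested genes). All 7 had negative log2 fold changes there, and for 5 the groups did not overlap (36.5% of all tested genes, in either direction). The 6 suprabasal and stress keratins summed to 2427 to 4272 CPM, 18319 to 27921 CPM and 17878 to 19778 CPM in the same order, the 10 skeletal muscle markers to 972 to 1838 CPM, 582 to 726 CPM and 275 to 1180.3 CPM, and the 6 adipocyte markers to 273 to 594 CPM, 69.4 to 120.0 CPM and 71.6 to 129.6 CPM. Between the genotypes 4 of the 6 keratins were called lower in Mdl-1-/- ears and 1 higher (10.1% and 7.58% of all tested genes). Krt10 averaged 5039 CPM in IL-23 wild-type and 14874 CPM in Mdl-1-/- ears. Krt6b averaged 8603 and 1476 CPM, so the keratin sum does not show these opposite moves. No marker on these lists was at 0 in all 9 libraries, and their part in the results below was not tested. In RNA from whole ear, fewer cells of a type and less RNA per cell cannot be told apart.

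Most of the glycolytic machinery rose with IL-23 in wild-type ear. Of the 31 tested genes, 21 rose, 3 fell and 7 were not called, where 22.9% of all tested genes were called higher, 21.7% lower and 44.7% either way. A called change of at least 2-fold was found for 16 (23.6% of all tested genes), and the 2 groups of libraries did not overlap for 25 (54.6% of all tested genes). The median log2 fold change was 0.89 over the 31 genes and -0.04 over all tested genes. The 21 span glucose uptake (Slc2a1, Hk1, Hk2), glycolysis (Gpi1, Pfkl, Pfkp, Aldoa, Aldoc, Tpi1, Pgk1, Pgam1, Eno1, Pkm), lactate (Ldha, Slc16a1, Slc16a3), the PFKFB enzymes (Pfkfb3, Pfkfb4) and the pentose phosphate pathway (G6pdx, Pgd, Pgls). The 3 that fell were Pfkm, Ldhb and Pfkfb2, each the sister of a gene that rose. Across the alternatives 16 to 21 genes were higher and 2 to 7 lower, and total-count scaling gave 16 and 7.

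Under IL-23, 17 of the 31 tested genes were lower in Mdl-1-/- than in wild-type ears and 14 were not called, where 10.1% of all tested genes were called lower, 7.58% higher and 17.7% either way. For 4 the called change was at least 2-fold (6.61% of all tested genes), and for 19 the groups did not overlap (36.5% of all tested genes). None was called higher by edgeR, by DESeq2 or at an unadjusted p below 0.05, where 19 were lower. The median log2 fold change was -0.61 over the 31 genes and 0.00 over all tested genes. The 17 were Slc2a1, Hk1, Hk2, Gpi1, Pfkl, Pfkp, Aldoa, Pgk1, Pgam1, Eno1, Pkm, Ldha, Slc16a3, Pfkfb3, Pfkfb4, Pgd and Pgls. The count moved with single libraries: 9 genes were called lower when IL-23 wild-type library 2 or Mdl-1-/- library 3 was dropped, and 11 when Mdl-1-/- library 1 was dropped. In all 17 alternatives 9 of the 17 calls held, those of Hk2, Pfkp, Aldoa, Pgk1, Pgam1, Pkm, Ldha, Slc16a3 and Pfkfb3. Both comparisons share the IL-23 wild-type libraries, so no overlap between them is given.

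Set directly against wild-type GFP ears, the Mdl-1-/- ears with IL-23 had 13 genes higher, 4 lower and 14 not called, where 10.2% of all tested genes were called higher, 6.93% lower and 17.1% either way. For 7 the called change was at least 2-fold (8.16% of all tested genes), and for 21 the groups did not overlap (35.8% of all tested genes). The median log2 fold change was 0.45 over the 31 genes and -0.02 over all tested genes. The 13 were Slc2a1, Hk2, Pfkl, Aldoc, Tpi1, Pgk1, Pgam1, Eno1, Pkm, Ldha, Slc16a3, Pfkfb3 and Pfkfb4, and the 4 were Pfkm, Ldhb, Taldo1 and Rpia. Only Pfkm and Ldhb stayed among the lower genes with DESeq2, or without wild-type GFP library 1, 2 or 3, IL-23 wild-type library 2, or Mdl-1-/- library 1 or 3, each of which gave 2 lower genes. Among the 13 higher genes, calls were lost without Mdl-1-/- library 2 for Ldha, Pfkl, Pkm and Tpi1, without GFP library 1 for Aldoc and Ldha, without GFP library 3 for Aldoc, Ldha and Tpi1, and without GFP library 2 or Mdl-1-/- library 3 for Tpi1. Total-count scaling lost the calls of Aldoc, Pfkl, Pkm and Tpi1, and upper-quartile scaling that of Tpi1. Mdl-1-/- library 2 was the highest of its group for 21 of the 31 tested genes and the lowest for 2, while libraries 1 and 3 were each highest for 5. That library also had the most S100a8 and S100a9 of its group, 25885 CPM against 6625 and 13460 CPM in libraries 1 and 3. The 6 other neutrophil markers were not highest in it, with 134 CPM against 141 and 115 CPM. A link between these markers and the 31 genes was not tested.

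**Figure D1:**
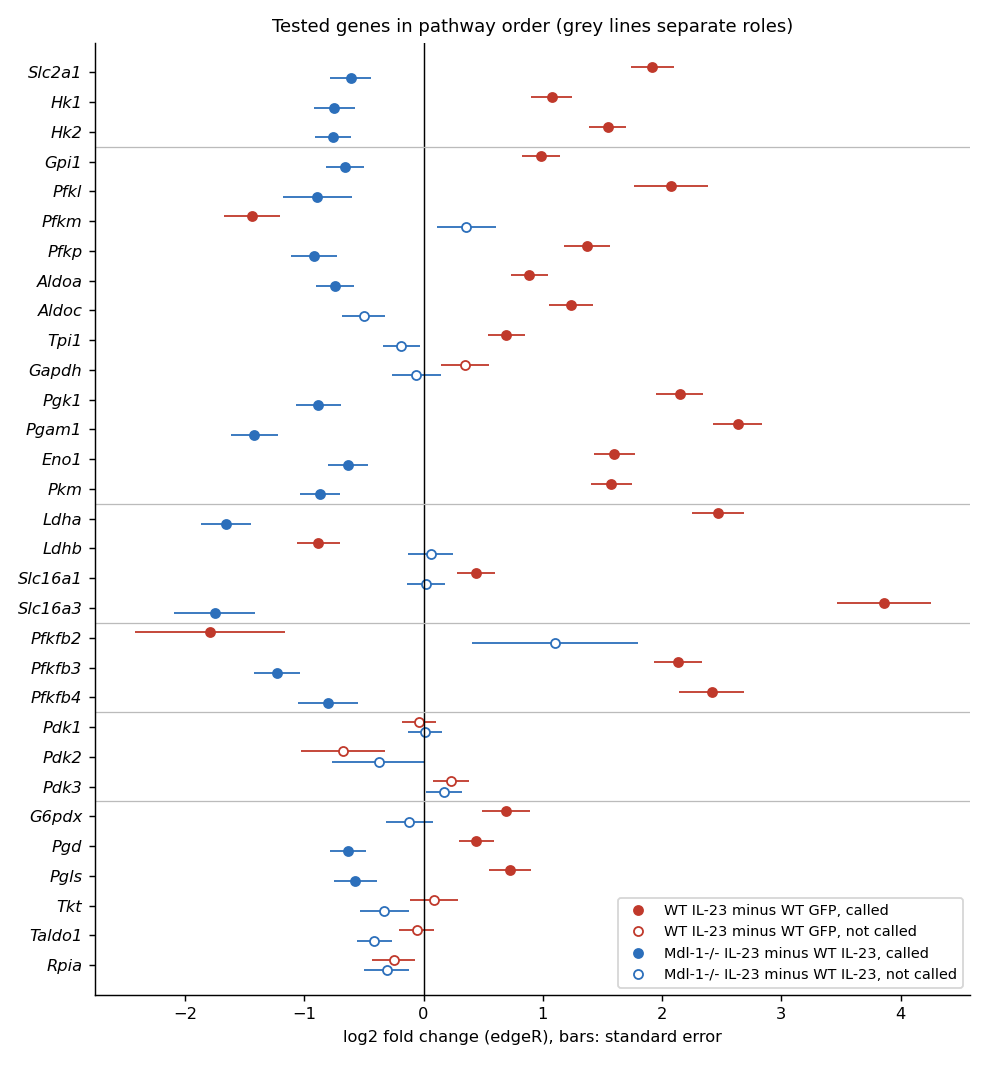
Log2 fold changes of the 31 tested genes in pathway order, for IL-23 against GFP in wild-type ear (red) and for Mdl-1-/- ears relative to IL-23 wild-type ears (blue), with standard errors as bars and filled points for called genes. Most red points lie right of 0, with Pfkm, Ldhb and Pfkfb2 called on the left, and every called blue point lies left of 0.

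To show what lies before the 5 genes with the largest rise with IL-23 and before the 3 sisters that fell, 250 bases ahead of the most upstream RefSeq start site are printed for Slc16a3, Pgam1, Ldha, Pfkfb4 and Pgk1, which rose, and for Ldhb, Pfkm and Pfkfb2, which fell, from RefSeq on GRCm38.p6, each read 5′ to 3′ on its gene's strand. Capitals mark ACGTG, the core letters of the HIF-1 response element, and GCGTG, its other common form, searched on both strands, so that the reverse strand shows as CACGT and CACGC. The palindrome CACGTG holds ACGTG on both strands and counts as 2 matches.
Ldha, chr7:46845554-46845803, plus strand: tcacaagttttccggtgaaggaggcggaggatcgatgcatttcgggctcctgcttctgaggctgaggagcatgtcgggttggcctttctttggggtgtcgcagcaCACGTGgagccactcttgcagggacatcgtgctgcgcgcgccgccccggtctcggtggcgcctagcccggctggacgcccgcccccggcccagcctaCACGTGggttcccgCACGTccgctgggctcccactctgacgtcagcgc
Pgk1, chrX:106186850-106187099, plus strand: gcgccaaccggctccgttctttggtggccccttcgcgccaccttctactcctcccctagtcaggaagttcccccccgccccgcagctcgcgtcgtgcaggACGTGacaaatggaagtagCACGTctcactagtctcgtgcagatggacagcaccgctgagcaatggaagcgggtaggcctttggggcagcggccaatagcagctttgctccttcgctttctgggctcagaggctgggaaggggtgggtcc
Pgam1, chr19:41911621-41911870, plus strand: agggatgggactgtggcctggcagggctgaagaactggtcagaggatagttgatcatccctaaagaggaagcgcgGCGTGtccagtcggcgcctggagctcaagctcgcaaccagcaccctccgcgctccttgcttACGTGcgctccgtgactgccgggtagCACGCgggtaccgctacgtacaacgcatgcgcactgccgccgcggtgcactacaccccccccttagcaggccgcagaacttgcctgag
Slc16a3, chr11:120948817-120949066, plus strand: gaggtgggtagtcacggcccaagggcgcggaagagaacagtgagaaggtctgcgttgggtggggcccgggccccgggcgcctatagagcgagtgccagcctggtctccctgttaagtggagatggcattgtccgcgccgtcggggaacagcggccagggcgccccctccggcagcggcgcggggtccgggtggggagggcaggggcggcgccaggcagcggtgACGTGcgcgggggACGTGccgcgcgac
Pfkfb4, chr9:108991652-108991901, plus strand: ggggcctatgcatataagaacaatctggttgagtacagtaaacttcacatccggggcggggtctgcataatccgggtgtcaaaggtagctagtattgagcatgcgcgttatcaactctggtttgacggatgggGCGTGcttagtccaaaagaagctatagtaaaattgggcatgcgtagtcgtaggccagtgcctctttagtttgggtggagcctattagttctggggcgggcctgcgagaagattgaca
Ldhb, chr6:142507958-142508207, minus strand: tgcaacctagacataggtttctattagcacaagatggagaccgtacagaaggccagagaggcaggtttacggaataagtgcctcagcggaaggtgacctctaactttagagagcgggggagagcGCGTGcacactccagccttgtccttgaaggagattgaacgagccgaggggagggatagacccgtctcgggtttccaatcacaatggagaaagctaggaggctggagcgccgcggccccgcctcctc
Pfkm, chr15:98092339-98092588, plus strand: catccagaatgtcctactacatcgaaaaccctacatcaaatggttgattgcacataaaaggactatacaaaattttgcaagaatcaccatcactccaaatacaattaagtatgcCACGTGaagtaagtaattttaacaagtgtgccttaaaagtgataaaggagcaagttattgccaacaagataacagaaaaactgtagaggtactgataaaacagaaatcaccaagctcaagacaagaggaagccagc
Pfkfb2, chr1:130716049-130716298, minus strand: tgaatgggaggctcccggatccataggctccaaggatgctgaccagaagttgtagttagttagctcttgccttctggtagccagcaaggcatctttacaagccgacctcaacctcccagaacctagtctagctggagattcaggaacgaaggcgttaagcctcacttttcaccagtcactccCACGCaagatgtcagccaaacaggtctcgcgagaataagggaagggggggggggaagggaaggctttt
The Ldha window held 5 matches, all of ACGTG, and those of Pgk1 and Slc16a3 held 2 each. The Pgam1 window held 1 ACGTG and 2 GCGTG, and the Pfkfb4 window 1 GCGTG and no ACGTG. Among the genes that fell, Ldhb and Pfkfb2 each held 1 GCGTG and no ACGTG, and Pfkm held 2 matches of ACGTG in 1 palindrome. Windows before other start sites of these genes are not printed and differed. For Pfkfb2, chr1:130715822-130716071 held 2 matches of ACGTG and 2 of GCGTG, and chr1:130714577-130714826 held 1 ACGTG. The other Ldha window held 1 GCGTG and no ACGTG, and the other Pfkm windows held 0 to 2 matches. All 34 genes matched the table, with 54 start sites, and 41 of these (75.9%) held either form, against 38.6% of all 32851 start sites. ACGTG alone stood before 33.3% of the 54 and 16.6% of all start sites, and GCGTG before 55.6% and 28.2%. These are matches of letters in a fixed window, and nothing is drawn from them about binding.

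All 3 genes of glucose uptake and phosphorylation rose with IL-23 in wild type. Slc2a1 (chr4:119108711-119137983, GRCm38) encodes GLUT1, the main basal glucose transporter of many cells. It stood at 66, 65.2 and 66.5 CPM in GFP ears, 223, 231 and 295 CPM in IL-23 wild-type ears and 142, 214 and 133 CPM in Mdl-1-/- ears. The 3 groups did not overlap, and Mdl-1-/- library 2 lay close to the IL-23 wild-type range. Slc2a1 was 3.78-fold higher with IL-23 (log2 change 1.92 ± 0.18 SE, edgeR adjusted p = 1.53e-06) and 1.53-fold lower in Mdl-1-/- than in wild type under IL-23 (log2 change -0.61 ± 0.17 SE, edgeR adjusted p = 0.0242). The second call did not hold without IL-23 wild-type library 2 or 3 or Mdl-1-/- library 1 or 3, and with total-count scaling, with log2 values of -0.84 to -0.45 and adjusted p up to 0.12 over the alternatives.

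Hexokinases trap glucose in the cell as glucose 6-phosphate. Hk2, the inducible form, rose from 56.7 ± 7.41 to 165 ± 13.8 CPM (SD, n = 3) with IL-23 and was 97.4 ± 15.7 CPM in Mdl-1-/-, a 1.7-fold lower level than in wild type (log2 change -0.76 ± 0.15 SE, edgeR adjusted p = 0.00435). Its groups did not overlap in any of the 3 comparisons, and both its rise (log2 change 1.54 ± 0.15 SE, edgeR adjusted p = 2.66e-06) and its lower level in Mdl-1-/- were called under every alternative. Hk1, the form found in most tissues, had 41.1, 57.3 and 46.7 CPM with GFP, 102, 109 and 94.6 CPM with IL-23 and 68.4, 67.2 and 45.8 CPM in Mdl-1-/-. The Mdl-1-/- libraries reached down into the GFP range. Hk1 was 2.11-fold higher with IL-23 (edgeR adjusted p = 0.00015) and 1.68-fold lower in Mdl-1-/- (edgeR adjusted p = 0.00896), the latter lost without IL-23 wild-type library 2 or Mdl-1-/- library 3 (adjusted p up to 0.0515).

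**Figure D2:**
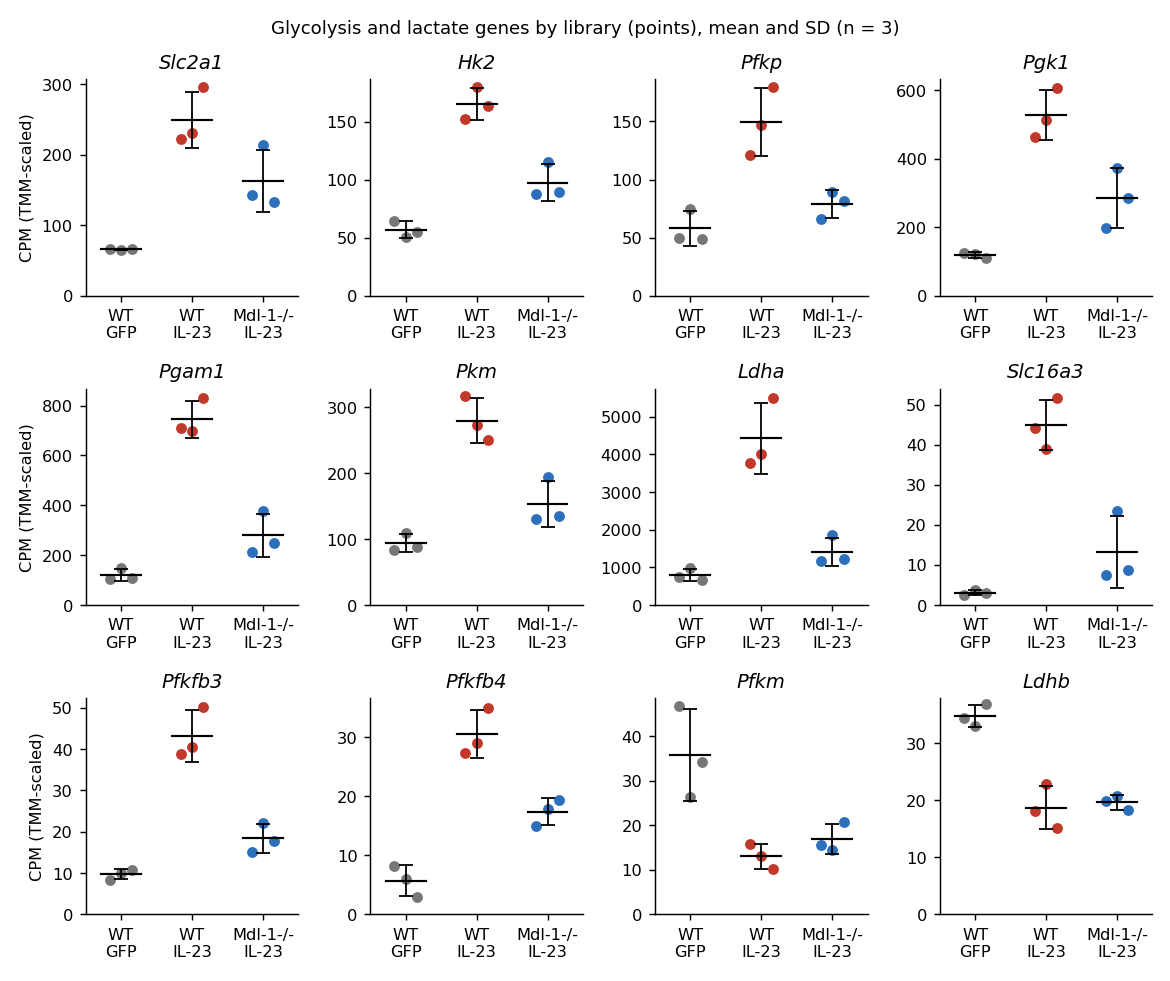
TMM-scaled CPM of 12 genes in each of the 9 libraries (points), with the mean and SD of each group (n = 3) and separate axes that start at 0. All panels but the last 2 show IL-23 wild-type libraries above the other groups, and the Pfkm and Ldhb panels show both IL-23 groups below the GFP group.

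The glycolytic enzymes were the largest group. Of 12 tested, 10 rose with IL-23 (22.9% of all tested genes), Pfkm fell (21.7% of all tested genes) and Gapdh was not called, and the median log2 fold change was 1.30. In Mdl-1-/- against wild type 8 were lower (10.1% of all tested genes) and 4 not called, with a median of -0.70. Pgam1 (chr19:41911923-41918660), the phosphoglycerate mutase of lower glycolysis, changed most in both. Its levels were 106, 148 and 106 CPM with GFP, 709.6, 697 and 831 CPM with IL-23 and 213, 376 and 248 CPM in Mdl-1-/-. Every IL-23 wild-type library was far above every other library, and every Mdl-1-/- library was above every GFP library. The rise was 6.21-fold (log2 change 2.63 ± 0.21 SE, edgeR adjusted p = 8.21e-07), and Mdl-1-/- was 2.67-fold lower (log2 change -1.42 ± 0.20 SE, edgeR adjusted p = 0.00107).

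Pgk1 (chrX:106187100-106203699), the phosphoglycerate kinase that makes the first ATP of the pathway, showed the same order. It measured 124, 123 and 109.8 CPM with GFP, 462, 513 and 608 CPM with IL-23 and 197, 374 and 287 CPM in Mdl-1-/-. The 3 groups did not overlap, though Mdl-1-/- libraries were spread widely. Pgk1 was 4.43-fold higher with IL-23 (log2 change 2.15 ± 0.20 SE, edgeR adjusted p = 1.83e-06) and 1.85-fold lower in Mdl-1-/- (log2 change -0.88 ± 0.19 SE, edgeR adjusted p = 0.00653). Pkm, pyruvate kinase of most tissues outside liver and red cells, rose from 93.9 ± 13.7 to 279 ± 33.9 CPM (edgeR adjusted p = 5.27e-06) and stood at 153 ± 35.3 CPM in Mdl-1-/- (edgeR adjusted p = 0.00394 against wild type). A 3' tag does not separate its splice forms PKM1 and PKM2.

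Phosphofructokinase, the committed step, has 3 isoenzymes, of which Pfkp and Pfkl rose with IL-23 and Pfkm fell. Pfkp, the platelet form, had 49.9, 74.7 and 48.7 CPM with GFP, 121, 147 and 179.5 CPM with IL-23 and 65.8, 89.2 and 81.5 CPM in Mdl-1-/-, the last overlapping the GFP range. It was 2.58-fold higher with IL-23 (log2 change 1.37 ± 0.19 SE, edgeR adjusted p = 4.99e-05) and 1.89-fold lower in Mdl-1-/- (log2 change -0.92 ± 0.19 SE, edgeR adjusted p = 0.00541). Its 3' end overlaps Pitrm1 on the opposite strand over 500 bases, and as the strand setting is not given in the sources used here, reads of the 2 genes may not be told apart; Pitrm1 had 601 counts in all and Pfkp 3777. Pfkl, the liver form, was a low gene that rose from 3.21 ± 1.33 to 13.8 ± 0.576 CPM (edgeR adjusted p = 7.81e-05) and had 7.42 ± 1.97 CPM in Mdl-1-/-. That difference from wild type (edgeR adjusted p = 0.045) was lost in 9 of 17 alternatives, among them DESeq2, both other scalings, and the fits without IL-23 wild-type library 1, 2 or 3, Mdl-1-/- library 1 or 3 or GFP library 1, with adjusted p up to 0.17.

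Pfkm (chr15:98092589-98132451) is the muscle form. Its levels were 46.8, 26.4 and 34.2 CPM with GFP, 15.8, 13.1 and 10.2 CPM with IL-23 and 15.7, 14.4 and 20.8 CPM in Mdl-1-/-. All 6 IL-23 libraries were below all 3 GFP libraries, whatever the genotype. It fell 2.71-fold in wild type (log2 change -1.44 ± 0.24 SE, edgeR adjusted p = 0.000182) and was 2.11-fold lower in Mdl-1-/- than in GFP ears (log2 change -1.08 ± 0.23 SE, edgeR adjusted p = 0.00447), while the genotypes under IL-23 were not called apart (log2 change 0.36 ± 0.25 SE, edgeR adjusted p = 0.339). All 10 skeletal muscle markers had lower values in IL-23 wild-type than in GFP ears with groups that did not overlap (54.6% of all tested genes, in either direction), and 2 of the 10 were called lower, a share near the 21.7% of all tested genes. Their part in the fall of Pfkm was not tested.

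Aldolase, triosephosphate isomerase and glucose phosphate isomerase made smaller moves. Aldoa, the most widespread aldolase, had 302, 281 and 289 CPM with GFP, 489, 550.0 and 575 CPM with IL-23 and 238, 350.4 and 375 CPM in Mdl-1-/-. The Mdl-1-/- values surrounded the GFP values, and all lay below the IL-23 wild-type values. Aldoa was 1.85-fold higher with IL-23 (edgeR adjusted p = 0.000316) and 1.67-fold lower in Mdl-1-/- (edgeR adjusted p = 0.00571). Aldoc, the brain-type aldolase, rose 2.36-fold (edgeR adjusted p = 7.91e-05), and its value in Mdl-1-/- against wild type, -0.50 ± 0.18 on the log2 scale, was not called (edgeR adjusted p = 0.0653). Gpi1, which makes fructose 6-phosphate, rose 1.98-fold (edgeR adjusted p = 0.00016) and was 1.58-fold lower in Mdl-1-/- (edgeR adjusted p = 0.0116), a call lost without IL-23 wild-type library 2 or Mdl-1-/- library 1 or 3 (adjusted p up to 0.0604). Tpi1, triosephosphate isomerase, rose 1.62-fold (edgeR adjusted p = 0.00198; 0.426 for Mdl-1-/- against wild type), and total-count scaling ended its call (log2 values of 0.29 to 0.79 over the alternatives).

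Eno1 and Gapdh have close copies elsewhere in the genome with which reads can be shared. Eno1, enolase, had 38.2 ± 4.73 CPM with GFP, 115 ± 11.1 CPM with IL-23 and 74.6 ± 17.2 CPM in Mdl-1-/-, and its near-identical copy Eno1b had 35.2 ± 5.09, 99.8 ± 19.2 and 77.5 ± 20.1 CPM. How reads were divided between the pair is uncertain, since the setting for reads that match several places is not given in the sources used here. Eno1b was called higher in both comparisons with GFP, and was not called between the genotypes under IL-23. Eno1 was 3.03-fold higher with IL-23 (log2 change 1.60 ± 0.17 SE, edgeR adjusted p = 4.83e-06) and 1.55-fold lower in Mdl-1-/- (log2 change -0.63 ± 0.17 SE, edgeR adjusted p = 0.0181); the second call did not hold without IL-23 wild-type library 1 or 2, without Mdl-1-/- library 1 or 3 and with total-count scaling (adjusted p up to 0.0974). Gapdh, often used as a reference gene, has 87 near copies of its 3' end among annotated transcripts, 67 of them with counts, which together held 149% of the counts of Gapdh itself. Its levels of 45.8, 26.8 and 42.4 CPM with GFP, 57.5, 48.6 and 40.0 CPM with IL-23 and 38.7, 51.2 and 50.8 CPM in Mdl-1-/- overlapped between all groups. It was not called in any comparison (log2 change 0.35 ± 0.20 SE, edgeR adjusted p = 0.173 for IL-23 against GFP), its sign turned with total-count scaling, and its level is uncertain for the reason given. The neuronal Eno2 had 1, 3 and 3 counts with GFP, 4, 0 and 2 with IL-23 and 3, 0 and 2 in Mdl-1-/-, too few to test.

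Of the 4 lactate genes, 3 rose with IL-23 and Ldhb fell. Ldha (chr7:46841475-46855627) encodes the lactate dehydrogenase subunit that favours lactate formation. It had 737, 982 and 677 CPM with GFP, 3779.9, 4004 and 5504 CPM with IL-23 and 1158, 1848 and 1215 CPM in Mdl-1-/-. The IL-23 wild-type libraries stood apart from the rest, and the Mdl-1-/- libraries lay between them and the GFP libraries without overlap. Ldha was 5.55-fold higher with IL-23 (log2 change 2.47 ± 0.22 SE, edgeR adjusted p = 3.59e-06) and 3.15-fold lower in Mdl-1-/- (log2 change -1.65 ± 0.21 SE, edgeR adjusted p = 0.00107). Against GFP ears Mdl-1-/- ears with IL-23 were 1.76-fold higher (log2 change 0.82 ± 0.21 SE, edgeR adjusted p = 0.0163), a call lost without Mdl-1-/- library 2 or GFP library 1 or 3 (adjusted p up to 0.0672).

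Slc16a3 (chr11:120948480-120960868) encodes MCT4, the low-affinity transporter through which highly glycolytic cells export lactate. It had 2.44, 3.67 and 3.09 CPM with GFP, 44.2, 39 and 51.6 CPM with IL-23 and 7.6, 23.6 and 8.63 CPM in Mdl-1-/-. Mdl-1-/- library 2 was well above its group, and still below every IL-23 wild-type library. The rise was 14.5-fold (log2 change 3.86 ± 0.39 SE, edgeR adjusted p = 1.5e-05) and Mdl-1-/- was 3.37-fold lower than wild type (log2 change -1.75 ± 0.34 SE, edgeR adjusted p = 0.00608). Without 1 library at a time, and under the other alternatives, the second log2 value ran over -2.45 to -1.47 and stayed called.

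Ldhb (chr6:142490249-142507957), the heart-type subunit that favours lactate use, had 34.5, 33.1 and 36.8 CPM with GFP, 18.1, 22.8 and 15.2 CPM with IL-23 and 19.9, 20.8 and 18.2 CPM in Mdl-1-/-. All IL-23 libraries of both genotypes were below the GFP libraries. It fell 1.84-fold in wild type (log2 change -0.88 ± 0.18 SE, edgeR adjusted p = 0.000923), was 1.77-fold lower in Mdl-1-/- than in GFP ears (log2 change -0.82 ± 0.18 SE, edgeR adjusted p = 0.00465), and was not called apart between genotypes (0.06 ± 0.19 on the log2 scale, edgeR adjusted p = 0.863). Its near copy Gm5514, a processed pseudogene with 98.1% identity over 309 bases, had 86 counts in all against 1101 for Ldhb: 23, 4 and 28 with GFP, 4, 3 and 1 with IL-23 and 11, 10 and 2 in Mdl-1-/-. How reads were divided between these is uncertain too. Slc16a1 encodes MCT1, the widespread monocarboxylate transporter that moves lactate in either direction. It rose slightly, from 63.7 ± 3.37 to 86.6 ± 13.1 CPM (log2 change 0.44 ± 0.16 SE, edgeR adjusted p = 0.0328), a call lost in 7 of 17 alternatives, among them the fits without GFP library 1 or 3 or IL-23 wild-type library 1 or 3 and both other scalings (log2 values of 0.04 to 0.56). In Mdl-1-/- it stood at 88 ± 14.5 CPM and did not differ detectably from wild type (log2 fold change 0.02 ± 0.16).

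Ratios of sister genes within a library need no scaling between libraries. The log2 ratio of Ldha to Ldhb counts, with 0.5 added to each, was 4.50 ± 0.35 with GFP, 7.88 ± 0.54 with IL-23 and 6.12 ± 0.31 in Mdl-1-/- (SD, n = 3), a shift of 3.38 with IL-23 and of -1.75 from wild type to Mdl-1-/-. Slc16a3 to Slc16a1 shifted by 3.41 and -1.96, Pfkp to Pfkm by 2.80 and -1.29, and Pfkfb3 to Pfkfb2 by 3.73 and -2.28. For these 4 pairs the libraries of the groups did not overlap in either comparison. The exact two-sided permutation p was 0.1 each time, the smallest that 3 libraries against 3 can give, and 0.2 after Benjamini-Hochberg adjustment over 24 tests, so no ratio could pass the threshold. Hk2 to Hk1 (0.46, exact p = 0.2, adjusted 0.3) and Aldoc to Aldoa (0.36, exact p = 0.3, adjusted 0.4) overlapped between IL-23 wild-type and GFP ears. Both members of these pairs had risen. The ratios compare tag counts of 2 genes and are no measure of enzyme amount.

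**Figure D3:**
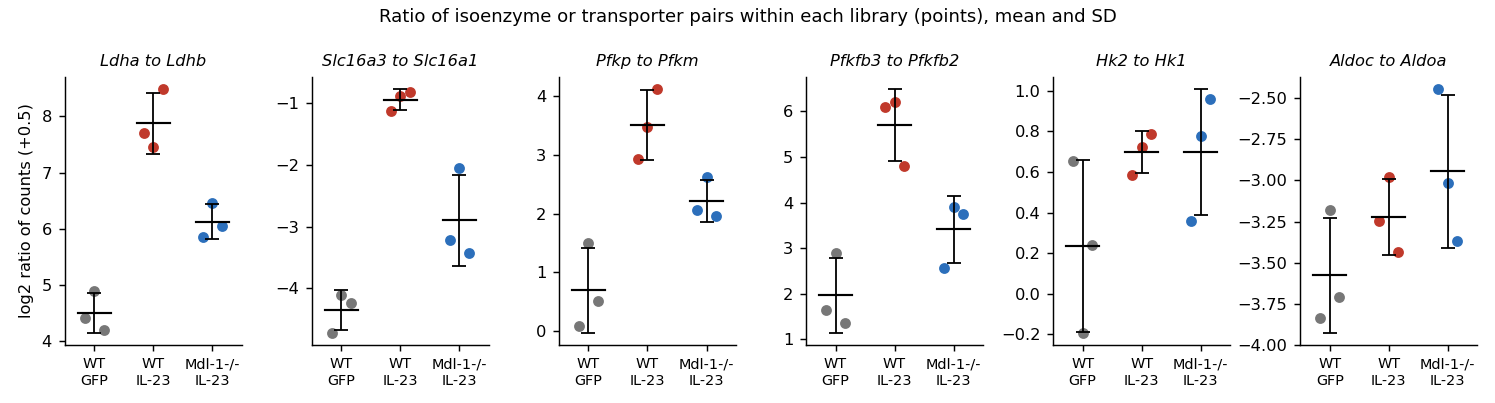
Log2 ratio of the counts (plus 0.5) of sister genes within each of the 9 libraries (points), with the mean and SD of each group (n = 3); axes differ and do not start at 0. In the 4 panels on the left the IL-23 wild-type libraries lie above both other groups, and in the Hk2 to Hk1 and Aldoc to Aldoa panels the groups overlap.

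PFKFB enzymes set the level of fructose 2,6-bisphosphate, the strongest activator of phosphofructokinase. Pfkfb3, the form with the highest kinase activity, had 8.35, 10.1 and 10.8 CPM with GFP, 38.7, 40.5 and 50.3 CPM with IL-23 and 15.2, 22.2 and 17.7 CPM in Mdl-1-/-. Its groups did not overlap, and it was 4.39-fold higher with IL-23 (log2 change 2.13 ± 0.20 SE, edgeR adjusted p = 1.53e-06) and 2.34-fold lower in Mdl-1-/- (log2 change -1.23 ± 0.19 SE, edgeR adjusted p = 0.00139). Pfkfb4, known from testis and from hypoxic cells, had 8.18, 6.06 and 2.94 CPM with GFP, 27.3, 29.1 and 35 CPM with IL-23 and 15, 17.8 and 19.4 CPM in Mdl-1-/-. Groups again did not overlap, the rise was 5.33-fold (log2 change 2.41 ± 0.28 SE, edgeR adjusted p = 8.1e-06), and the 1.74-fold lower level in Mdl-1-/- (log2 change -0.80 ± 0.25 SE, edgeR adjusted p = 0.039) was lost without IL-23 wild-type library 2 or 3, without any 1 Mdl-1-/- library and with both other scalings (adjusted p up to 0.13).

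Pfkfb2, the heart-type form, was a sparse gene with 15, 7 and 27 counts in GFP ears, 2, 2 and 5 in IL-23 wild-type ears and 11, 6 and 5 in Mdl-1-/- ears. The groups overlapped. It was called lower with IL-23 (log2 change -1.79 ± 0.63 SE, edgeR adjusted p = 0.0297), and that call was lost with DESeq2 and without GFP library 1 or 3 or IL-23 wild-type library 1 or 2 (adjusted p up to 0.166). Pfkfb1 had 5, 10 and 12, 6, 4 and 5 and 7, 6 and 2 counts in the same order and was not tested.

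Pyruvate dehydrogenase kinases switch off the entry of pyruvate into mitochondria. None of the 3 tested was called by edgeR as fitted here in any comparison. At an unadjusted p below 0.05, 0 were found with IL-23 in wild type and 0 between the genotypes. Between Mdl-1-/- and GFP ears 2 were found. DESeq2 called none either. Pdk1, a textbook HIF-1 target, had 81.6, 99 and 83.7 CPM with GFP, 93.5, 80.6 and 83 CPM with IL-23 and 90.1, 94.5 and 74.5 CPM in Mdl-1-/-. The 3 groups covered nearly the same range, with log2 fold changes of -0.04 ± 0.14 with IL-23 in wild type and 0.01 ± 0.15 for Mdl-1-/- against wild type. Total-count scaling, which shifted all genes downward in the first comparison, called Pdk1 and Pdk2 lower there. Pdk2 stood at 10.9 ± 3.41, 6.56 ± 3.42 and 5.23 ± 1.38 CPM in the same order of groups, and Pdk3 at 30.9 ± 1.8, 36.3 ± 0.595 and 40.9 ± 3.83 CPM. Pdk2 was called lower in Mdl-1-/- than in GFP ears under 6 alternatives and not as fitted here (log2 change -1.05 ± 0.36 SE, edgeR adjusted p = 0.0561). Pdk4, the starvation-induced kinase, had 2, 4 and 0 counts with GFP, 0, 0 and 0 with IL-23 and 1, 2 and 1 in Mdl-1-/-, at the limit of detection, where a count of 0 allows up to 0.464 to 0.992 TMM-scaled CPM depending on the library (3 counts, counting error only).

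The oxidative branch of the pentose phosphate pathway makes NADPH, and its 3 listed enzymes rose with IL-23, each a call lost with total-count scaling. G6pdx, its entry enzyme, had 12, 17.1 and 15.3 CPM with GFP, 26.1, 23.2 and 22.2 CPM with IL-23 and 21.9, 25.8 and 18.2 CPM in Mdl-1-/-. Both IL-23 groups lay above the GFP group and overlapped each other. The rise was 1.61-fold (log2 change 0.69 ± 0.20 SE, edgeR adjusted p = 0.0104), lost without GFP library 1 and with total-count scaling, and Mdl-1-/- was not called apart from wild type (-0.12 ± 0.20 on the log2 scale). Pgls, the lactonase, rose 1.66-fold (log2 change 0.73 ± 0.18 SE, edgeR adjusted p = 0.00353) and was 1.49-fold lower in Mdl-1-/- (log2 change -0.57 ± 0.18 SE, edgeR adjusted p = 0.0365); the rise was lost with total-count scaling and the second call in 7 alternatives, those without IL-23 wild-type library 2 or 3, Mdl-1-/- library 1 or 3 or GFP library 3 and with both other scalings.

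Pgd, the last enzyme of the oxidative branch, had 60.0, 80.8 and 73 CPM with GFP, 92.6, 106 and 91.9 CPM with IL-23 and 64, 67.5 and 56.1 CPM in Mdl-1-/-. The Mdl-1-/- values fell in or below the GFP range. Pgd was 1.36-fold higher with IL-23 (log2 change 0.44 ± 0.15 SE, edgeR adjusted p = 0.0233), a call lost without GFP library 1 or 3, IL-23 wild-type library 2 and with both other scalings (log2 values of 0.04 to 0.56). It was 1.55-fold lower in Mdl-1-/- than in wild type (log2 change -0.63 ± 0.15 SE, edgeR adjusted p = 0.0104), lost without IL-23 wild-type library 2 or Mdl-1-/- library 3.

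The non-oxidative branch shuffles sugars back to glycolysis, and its 3 members here were not called with IL-23 in wild type. Rpe, its ribulose-phosphate epimerase, is not among the 34 genes and was picked after its values were seen; it was called higher (log2 change 0.80 ± 0.24 SE, edgeR adjusted p = 0.0143), a call lost with total-count scaling (adjusted p = 0.183). A difference between the branches was not tested. Tkt, transketolase, had log2 fold change 0.08 ± 0.20, Taldo1, transaldolase, -0.06 ± 0.15, and Rpia, ribose 5-phosphate isomerase, -0.25 ± 0.18; edgeR adjusted p was 0.761, 0.772 and 0.276. The sign of Tkt turned with both other scalings, and total-count scaling called Taldo1 and Rpia lower in this comparison. Taldo1 had 111, 134 and 125 CPM with GFP, 119, 121 and 115 CPM with IL-23 and 89, 104 and 73.1 CPM in Mdl-1-/-, the last below all others, and was called lower against GFP (log2 change -0.47 ± 0.15 SE, edgeR adjusted p = 0.0363) and not against IL-23 wild-type (log2 change -0.41 ± 0.15 SE, edgeR adjusted p = 0.0631). Rpia was also called lower against GFP (log2 change -0.56 ± 0.18 SE, edgeR adjusted p = 0.0451). These calls moved with the settings: Taldo1 was lost in 8 and Rpia in 11 of 17 alternatives, both of them with DESeq2, without GFP library 1, 2 or 3, without IL-23 wild-type library 2 and without Mdl-1-/- library 1 or 3, with adjusted p up to 0.184 and 0.151.

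Levels summed over each role are given as a description with no test. The 4 lactate genes summed to 777 to 1084 CPM with GFP, 3939 to 5662 CPM with IL-23 and 1257 to 1991 CPM in Mdl-1-/-, nearly all of it Ldha. The 13 glycolytic enzymes summed to 951 to 1020.3, 2661 to 2953 and 1218 to 1859 CPM, and the 3 uptake genes to 168 to 173, 477 to 553 and 268 to 396 CPM. The 4 PFKFB genes summed to 19.7 ± 0.376, 75.8 ± 11.2 and 38.6 ± 4.28 CPM (SD, n = 3). In these 4 sums Mdl-1-/- libraries lay between the other groups. The 6 pentose phosphate genes summed to 294 to 389.9, 369.7 to 409 and 246 to 321 CPM, where IL-23 wild-type and GFP libraries overlapped and Mdl-1-/- had the lowest mean. Pyruvate dehydrogenase kinases summed to 124 to 141, 121 to 139 and 124 to 141 CPM, which overlapped throughout.

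Around these 34 genes, 90 further genes of glucose metabolism and its control were listed and 67 tested. With IL-23 in wild type 14 rose (20.9%, against 22.9% of all tested genes) and 20 fell (29.9% against 21.7%). In Mdl-1-/- against wild type 4 were higher (5.97% against 7.58%) and 6 lower (8.96% against 10.1%), both near the background. In Mdl-1-/- against GFP 8 were higher (11.9% against 10.2%) and 14 lower (20.9% against 6.93%). In the second comparison the 4 became 1 without IL-23 wild-type library 2 or Mdl-1-/- library 3 and 0 without IL-23 wild-type library 3 or Mdl-1-/- library 1, and the 6 became 3 without IL-23 wild-type library 3; in the third the 14 became 6 without GFP library 3 and 9 without Mdl-1-/- library 2. Hif1a, the HIF-1 subunit regulated by oxygen, had 175, 183 and 172 CPM with GFP, 781, 849 and 1099 CPM with IL-23 and 237, 461 and 269 CPM in Mdl-1-/-. The IL-23 wild-type libraries were above all others and Mdl-1-/- library 2 was the highest of its group. Hif1a was 5.14-fold higher with IL-23 (log2 change 2.36 ± 0.22 SE, edgeR adjusted p = 6.14e-06) and 2.82-fold lower in Mdl-1-/- (log2 change -1.50 ± 0.22 SE, edgeR adjusted p = 0.00157). These are mRNA levels. HIF-1 activity is controlled mainly through protein stability, which was not measured. Epas1, the HIF-2 subunit, was not called with IL-23 (log2 change -0.09 ± 0.19) and was lower in Mdl-1-/- (log2 change -0.67 ± 0.20 SE, edgeR adjusted p = 0.0303), a call lost with total-count scaling, with only the compared groups fitted, and without IL-23 wild-type library 2 or 3 or Mdl-1-/- library 1 or 2 (adjusted p up to 0.146).

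Egln3, a HIF prolyl hydroxylase, had 11, 9.55 and 11.8 CPM with GFP, 132, 176 and 179 CPM with IL-23 and 78.5, 142 and 105 CPM in Mdl-1-/-. Both IL-23 groups were far above GFP and overlapped each other. The rise was 15-fold (log2 change 3.91 ± 0.22 SE, edgeR adjusted p = 6.02e-08), and the difference between genotypes (log2 change -0.58 ± 0.19 SE, edgeR adjusted p = 0.0461) was lost in 11 of 17 alternatives, among them both other scalings and the fits without any 1 GFP library, IL-23 wild-type library 2 or 3 or Mdl-1-/- library 1 or 3 (adjusted p up to 0.187). Slc5a1, the sodium-coupled glucose transporter SGLT1, had 17.8, 16.9 and 10.1 CPM with GFP, 179, 183 and 263 CPM with IL-23 and 138, 198 and 199 CPM in Mdl-1-/-. It was 14-fold higher with IL-23 (log2 change 3.81 ± 0.24 SE, edgeR adjusted p = 2.58e-07), and the overlapping genotypes were not called apart (log2 change -0.22 ± 0.21 SE, edgeR adjusted p = 0.497). Arrdc4, an arrestin-like protein that curbs glucose uptake, also rose (log2 change 2.07 ± 0.20 SE, edgeR adjusted p = 1.88e-06) and was not called between genotypes (log2 change -0.27 ± 0.18).

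Txnip, the sister of Arrdc4 that pulls GLUT1 from the membrane, went the opposite way. It had 231, 83.2 and 253 CPM with GFP, 46.1, 33.9 and 27.4 CPM with IL-23 and 272, 118 and 203 CPM in Mdl-1-/-. The IL-23 wild-type libraries were below all others, and the Mdl-1-/- and GFP libraries covered a similar wide range. Txnip was 5.25-fold lower with IL-23 (log2 change -2.39 ± 0.51 SE, edgeR adjusted p = 0.00783) and 5.48-fold higher in Mdl-1-/- than in wild type (log2 change 2.45 ± 0.51 SE, edgeR adjusted p = 0.0197). The second call did not hold without IL-23 wild-type library 2 or 3 or Mdl-1-/- library 1 or 3, with adjusted p up to 0.0832.

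Transporters other than Slc2a1 and the MCT pair moved in both directions with IL-23 in wild type. Slc2a3, GLUT3 of leukocytes and neurons, rose (log2 change 2.09 ± 0.59 SE, edgeR adjusted p = 0.0116), as did Slc16a6 of the monocarboxylate transporter family (log2 change 1.77 ± 0.22 SE, edgeR adjusted p = 1.42e-05). Slc16a7, which encodes the high-affinity MCT2, fell (log2 change -2.44 ± 0.82 SE, edgeR adjusted p = 0.0242), a call lost without GFP library 1 or 3 or IL-23 wild-type library 1 or 2 (adjusted p up to 0.0893). A fall was also called for Emb, embigin, a membrane partner of MCT proteins (log2 change -1.43 ± 0.18 SE, edgeR adjusted p = 2.04e-05). Emb was higher in Mdl-1-/- than in wild type (log2 change 0.73 ± 0.18 SE, edgeR adjusted p = 0.0132), a call lost without IL-23 wild-type library 3 or Mdl-1-/- library 1 (adjusted p up to 0.0756). Slc2a4, the insulin-responsive GLUT4 of muscle and fat, which was picked after its values were seen, fell as well (log2 change -1.0 ± 0.25 SE, edgeR adjusted p = 0.00369). So did the glucose transporter Slc2a12, also picked after its values were seen. It was called in all 17 alternatives, with log2 values of -2.38 to -1.75.

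**Figure D4:**
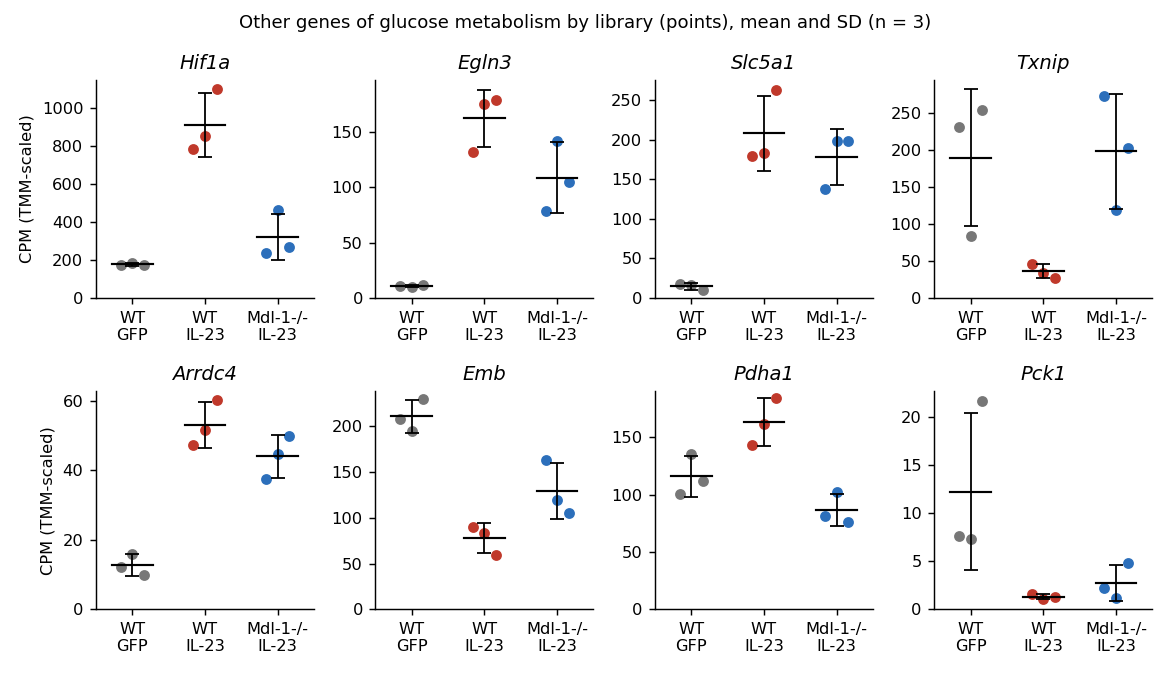
TMM-scaled CPM of 8 further genes of glucose metabolism and its control in each of the 9 libraries (points), with the mean and SD of each group (n = 3) and axes that start at 0. Hif1a and Txnip show the IL-23 wild-type libraries apart from both other groups in opposite directions, while Slc5a1 and Arrdc4 show both IL-23 groups above GFP.

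The authors' deposited table of their own edgeR comparisons called 21 of the 34 genes for IL-23 against GFP (19 with a positive and 2 with a negative log2 value), 12 between the genotypes and 14 between Mdl-1-/- and GFP ears at a false discovery rate below 0.05. Of these, 21, 12 and 13 were called here too. The gene called by the authors and not here was Pdk2, between Mdl-1-/- and GFP ears (their edgeR false discovery rate 0.0417). The authors' deposited tables do not state which group is subtracted: for both comparisons with GFP the shared calls had the sign found here, and between the genotypes all 12 had the opposite sign. The 5 genes called here and not in the authors' deposited table for Mdl-1-/- against wild type were Slc2a1, Gpi1, Pfkl, Eno1 and Pgls.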

How the data were processed

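RNA from mouse ear was measured by 3' tag RNA-seq in 9 libraries. The tools named in the submitters' processing notes are STAR 2.7.0a, featureCounts and edgeR, and the build named is GRCh38.p6, a human name, although the gene identifiers are mouse; the build used is uncertain. The authors' deposited tables hold raw counts per gene, and their comparison tables hold log2 fold changes, mean log2 CPM, p-values and false discovery rates, used here only for the count of called genes. The count tables were joined (0 values differed between them) into 54838 genes, named and placed by identifier from GENCODE M21 on GRCm38. The symbol Aldoa has a second identifier with 0 counts, which was not used.

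The test was edgeR 4.0.16 (R 4.3.3): filterByExpr (minimum count 10, minimum total 15), TMM scaling, 1 model of 3 group means over 9 libraries, robust quasi-likelihood F-test with 6 residual degrees of freedom, and Benjamini-Hochberg adjustment over 13807 genes. CPM ± SD has n = 3. The 17 alternatives were upper-quartile and total-count scaling (the latter added after seeing the data), DESeq2 1.42.0, no filter and a minimum count of 30, no mitochondrial genes, only the groups compared, a replicate block, and leaving out each library. The labels state no pairing by library number, and 2 of 9 same-number pairs had a correlation of deviations over 0.1 (range -0.09 to 0.23). With 3 libraries per group this check cannot settle whether the numbers pair samples. Counts were also simulated from 1 common mean per gene, with 200 genes changed in equal numbers up and down. There the test recovered 58%, 62% and 53% of genes changed 2-fold in the 3 comparisons, in the order reported. Of its calls there, 4.4%, 7.41% and 4.52% were genes left unchanged. In the real data 44.7% of all tested genes were called for IL-23 against GFP, so these rates may not carry over. Near copies were found by aligning the last 500 bases of each transcript. The 34 genes, the other lists and the markers were chosen with earlier results of these data known. Genes named are all listed members, and of the other lists the called genes with the largest changes, up to 8 per comparison.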

Additional observations from a re-analysis of the deposited data

How the results depend on the processing

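Of the calls among the 31 tested genes, 18 of 24 for IL-23 against GFP, 9 of 17 for Mdl-1-/- against wild type and 10 of 17 for Mdl-1-/- against GFP held in all 17 alternatives; no called gene changed direction. With total-count scaling, genes lower with IL-23 numbered 7. Leaving out 1 library at a time gave 9 to 18 genes lower in Mdl-1-/- than in wild type and 2 to 5 lower in Mdl-1-/- than in GFP ears, where DESeq2 gave 2. Of the other pathway genes, total-count scaling gave 9 higher and 35 lower with IL-23, 3 lower in Mdl-1-/- against wild type and 23 lower in Mdl-1-/- against GFP, and using only the groups compared gave 3 lower in Mdl-1-/- against wild type; leaving out 1 library gave 0 to 6 higher and 3 to 6 lower in Mdl-1-/- against wild type and 6 to 16 lower against GFP. The cause of these changes was not tested. Fits that leave out 1 library also have fewer libraries, and that was not separated from the influence of the library left out.

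Signs turned only for values that were not called. For IL-23 against GFP, total-count scaling gave log2 values of -0.0462 for Gapdh, -0.169 for Pdk3 and -0.311 for Tkt, and upper-quartile scaling gave -0.0704 for Tkt; leaving out 1 library gave -0.0988 to 0.075 for Pdk1, -0.122 to 0.0303 for Taldo1 and -0.107 to 0.351 for Tkt. For Mdl-1-/- against wild type, total-count scaling gave 0.0306 for G6pdx and 0.0845 for Gapdh; leaving out 1 library gave -0.24 to 0.0161 for G6pdx, -0.172 to 0.0765 for Gapdh, -0.0513 to 0.244 for Ldhb, -0.0475 to 0.123 for Pdk1 and -0.0808 to 0.155 for Slc16a1. For Mdl-1-/- against GFP, total-count scaling gave -0.105 for Aldoa and -0.0913 for Pgls, and DESeq2 0.000381 for Pdk1; leaving out 1 library gave -0.0837 to 0.102 for Pdk1 and -0.358 to 0.036 for Tkt. Among ratios, leaving out 1 library gave log2 differences of -0.131 to 0.171 for Hk2 to Hk1 and -0.628 to 1.42 for Eno2 to Eno1 in Mdl-1-/- against wild type, and of -1.10 to 0.484 for Pdk1 to Pdk4 in Mdl-1-/- against GFP.

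With the replicate number as a block, no member call was lost. Of 18 best matches between a library and another group, 7 had its own number. The block gave 6257, 2800 and 2682 called genes in the 3 comparisons against 6169, 2439 and 2359 without it, and 19 members lower in Mdl-1-/- than in wild type. Depth limits low genes: Eno2, Pfkfb1 and Pdk4 could not be tested, and Pfkfb2 and Pfkl rest on few counts.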

Other observations

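Glycogen genes were lower with IL-23 more often than higher. Of 14 tested, 7 were lower and 1 higher in IL-23 wild-type than in GFP ears, where 21.7% of all tested genes were lower and 22.9% higher, with a median log2 fold change of -0.77 against -0.04 over all tested genes. Phka1, the muscle phosphorylase kinase subunit, fell from 12.1 ± 4.58 to 3.79 ± 0.789 CPM (log2 change -1.70 ± 0.38 SE, edgeR adjusted p = 0.00189). Pygm, muscle glycogen phosphorylase, fell from 26 ± 6.72 to 11.7 ± 0.845 CPM (log2 change -1.16 ± 0.37 SE, edgeR adjusted p = 0.0229), a call lost without GFP library 1 or 3 or any 1 IL-23 wild-type library (adjusted p up to 0.0847). Pgm1, named as a phosphoglucomutase, was the gene on this list that rose: it had 32, 35.1 and 26.5 CPM with GFP, 56.1, 69.4 and 54.6 CPM with IL-23 and 25.7, 38.2 and 24.2 CPM in Mdl-1-/-. The Mdl-1-/- and GFP values overlapped below the IL-23 wild-type values. Pgm1 was 1.93-fold higher with IL-23 (log2 change 0.95 ± 0.19 SE, edgeR adjusted p = 0.000808) and 2.05-fold lower in Mdl-1-/- than in wild type (log2 change -1.03 ± 0.19 SE, edgeR adjusted p = 0.0031). Of 10 skeletal muscle markers, all lower in the IL-23 wild-type libraries, 2 were called lower, and their part was not tested.

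Genes of pyruvate entry into mitochondria moved in both directions. Mpc1, a subunit of the mitochondrial pyruvate carrier, had 88, 9 and 79 counts with GFP, 3, 3 and 2 with IL-23 and 30, 13 and 13 in Mdl-1-/-, with GFP library 2 far below the other GFP libraries, and was called lower with IL-23 (log2 change -3.82 ± 0.86 SE, edgeR adjusted p = 0.00483). Its partner Mpc2, picked after its values were seen, fell from 173 ± 21.2 to 92.9 ± 4.66 CPM (log2 change -0.89 ± 0.13 SE, edgeR adjusted p = 8.67e-05). Pdha1, the catalytic subunit of pyruvate dehydrogenase, was 1.88-fold lower in Mdl-1-/- than in wild type (log2 change -0.91 ± 0.16 SE, edgeR adjusted p = 0.00242). Its rise with IL-23 (log2 change 0.49 ± 0.16 SE, edgeR adjusted p = 0.0194) was lost with both other scalings and without GFP library 1 or 3 or IL-23 wild-type library 2 or 3 (log2 values of 0.08 to 0.64). Pdp1, the phosphatase that reactivates pyruvate dehydrogenase, was lower with IL-23 (log2 change -1.17 ± 0.21 SE, edgeR adjusted p = 0.000295) and higher in Mdl-1-/- than in wild type (log2 change 0.72 ± 0.21 SE, edgeR adjusted p = 0.0285), the latter lost without IL-23 wild-type library 2 or 3 or Mdl-1-/- library 1 or 3 (adjusted p up to 0.107). Pck1, the first enzyme of gluconeogenesis and active in fat, fell from 7.66, 7.35 and 21.7 CPM to 1.6, 1.09 and 1.32 CPM (log2 change -3.18 ± 0.58 SE, edgeR adjusted p = 0.000758). Gpd1, glycerol 3-phosphate dehydrogenase of fat and liver, fell from 9.39 ± 3.64 to 3.73 ± 1 CPM (log2 change -1.34 ± 0.35 SE, edgeR adjusted p = 0.00591), a call lost without GFP library 3 (adjusted p up to 0.0552). All 5 tested adipocyte markers were called lower in the same comparison (21.7% of all tested genes), and their part was not tested.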
